A study of Mus musculus with 18 samples.

Results

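CD8 T cells sorted from the bone marrow of pMT-10 mice were compared between animals on zinc-enriched drinking water and animals on control water. pMT-10 mice carry an IL-10 transgene behind a metallothionein promoter, which zinc switches on. With zinc the CD8 cells held reads of Il10, which had 0 counts in all 3 libraries without zinc. Genes of cytotoxic and interferon-gamma-producing cells rose, among them Gzmb by 141-fold and Ifng by 26.8-fold. Most coinhibitory receptor genes tested rose with them (Lag3 by 79.5-fold, Pdcd1 by 23.3-fold). So did 14 of 23 genes of the interferon-gamma response and 11 of 29 of the cell cycle, against 577 of 11316 genes tested (5.10%). These lists were chosen with earlier results of the data known. Cxcr4, Ccr9, Itgae and Ltb fell.

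The comparison used 6 of the 18 libraries of the series, 3 with zinc and 3 without, chosen by their labels for strain, cell type and water. All 6 came from sorted marrow CD8 cells, and each group had its water for 30 days. The other libraries were CD8 cells of 3 zinc-fed C57BL/6 mice, which lack the transgene, and CD4 cells of the same 3 kinds of mice. Sex and age are not given in the labels. Xist was read at 597 to 1003 CPM in all 6 pMT-10 CD8 libraries and at most 2.15 CPM in those of C57BL/6. This gene of the inactive X chromosome thus differed between the strains. With zinc it was 1.27-fold higher and was not called. The sum over 5 sex-linked genes was 806 to 1000 CPM with zinc and 597 to 778 without. The labels give neither the cells in which the transgene is active nor a pMT-10 group that had zinc on the other chip. The libraries with zinc were sequenced on chip A together with those of C57BL/6, and the libraries without zinc on chip B. Zinc, the induced transgene and the chip therefore cannot be told apart within pMT-10.

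IL-10 is a cytokine that many immune cells make. It binds a receptor of the chains IL-10RA and IL-10RB and signals through the kinases JAK1 and TYK2 to the transcription factor STAT3. In CD8 T cells interferon gamma, granzymes and perforin are products of effector cells. Receptors such as PD-1, LAG-3 and TIGIT restrain T cells and appear after stimulation through the T cell receptor.

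Metallothionein promoters respond to zinc through metal response elements, bound by the factor MTF1, and interferon gamma acts on its target genes at interferon-gamma activated sites. The mouse's own Mt1 promoter is shown because a promoter of this family drives the transgene. The 7 interferon-gamma response genes with an activated site are shown because their list had a large share of genes that rose. Sequences are RefSeq's on GRCm38.p6, plus strand, with the metal response element core (TGCACNC or TGCGCNC) or the activated site (TTCNNNGAA, its own reverse complement) in capitals. Only the 250 bases before a gene's start were searched, on both strands.
Mt1 promoter, chr8:94178839-94179088: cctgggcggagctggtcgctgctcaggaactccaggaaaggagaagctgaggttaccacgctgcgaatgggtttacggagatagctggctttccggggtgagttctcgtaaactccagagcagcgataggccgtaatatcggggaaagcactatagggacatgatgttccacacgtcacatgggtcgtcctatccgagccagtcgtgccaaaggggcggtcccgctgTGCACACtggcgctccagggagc
Irf1, chr11:53769914-53769942: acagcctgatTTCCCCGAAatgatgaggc
Irf8, first site, chr8:120736177-120736205: caaaagtgatTTCTCGGAAagagagcgct
Irf8, next site, chr8:120736195-120736223: aagagagcgcTTCAGAGAAggcggatttg
Gm12250, chr11:58183772-58183800: aattactatgTTCTCAGAAatctgctttc
Igtp, chr11:58199501-58199529: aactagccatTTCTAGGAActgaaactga
Gbp5, nearer site, chr3:142496872-142496900: tggccgttatTTCTCAGAAccaagcacag
Gbp5, farther site, chr3:142496684-142496707: gcaacTTCTGGGAAattagttcag
Gbp7, farther site, chr3:142530220-142530248: tccgttttctTTCCAGGAAaagcagaagc
Gbp7, nearer site, chr3:142530239-142530267: aagcagaagcTTCTCAGAAagtcagcaca
Psmb8, chr17:34198088-34198116: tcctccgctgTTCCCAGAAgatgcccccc

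The metal response element core stood 23 bases before the Mt1 start as RefSeq places it. Bases past that start were not searched, so cores there were not counted. It is a short motif, found in 2911 of 8621 tested genes with a promoter sequence (33.8%). An activated site was found in 7 of the 18 interferon-gamma response genes that had a promoter sequence (38.9%), against 634 of those 8621 genes (7.35%) and 41 of the 431 that rose with zinc (9.51%). These matches describe the letters in the window and say nothing of binding.

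Total counts of the 6 libraries ran from 10546798 to 18519474, and 1 CPM (a count scaled to a common library total) stood for 10.5 to 18.5 reads. Log2 CPM of replicates in the series correlated across genes at 0.974 to 0.988, and genes are not independent replicates. Cd8a was read at 2023 to 2572 CPM with zinc and 1817 to 2151 without, and Cd4 at no more than 1.79 CPM in any of the 6. Cd8b1, the gene of the other CD8 chain, stood at 1869, 1489 and 1749.6 CPM with zinc and 2185, 2096 and 2603 without, so that its groups did not overlap, and it was not called (log2 -0.43, adjusted p = 0.0963). In all, 876 of 11316 genes tested were called at an adjusted p under 0.05 (7.74%), 577 higher with zinc (5.10%) and 299 lower (2.64%), and the median log2 difference over all genes was -0.005. Tests are edgeR's quasi-likelihood test with Benjamini-Hochberg adjustment over all 11316 genes. The labels do not say whether a library is 1 mouse or a pool, and the series' design names 3 mice for each kind.

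Zinc-fed C57BL/6 CD8 cells had the zinc water and chip A but no transgene. Against pMT-10 cells without zinc, 11 of 11316 genes were called in them (0.0972%), and 717 had an unadjusted p under 0.05. Of the 11, 5 were the sex-linked genes Xist, Ddx3y, Eif2s3y, Kdm5d and Uty, and the others were 5830416I19Rik, Ide, Neb, Nnt, Rell1 and Slc4a8. No tested member of any other gene list described here was among them. This comparison shares the libraries without zinc with the main one and differs also in strain and sex.

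Il10, on chromosome 1 (131019845 to 131024974, GRCm38), was the check of the transgene. It was read at 22.4, 3.2 and 12.9 CPM in zinc-fed replicates 1, 2 and 3, from 263, 34 and 176 reads, and had 0 reads in the 3 libraries without zinc and in the 3 of C57BL/6. Replicate 2 was thus the lowest of the zinc-fed libraries, and the groups did not overlap. Against a limit of 3 counts over the libraries without zinc, Il10 was at least 194-fold higher (adjusted p = 1.74e-05), and at least 128-fold when replicate 1 was left out. An exact two-sided permutation test gave p = 0.1, the smallest that 3 against 3 allows. The panel reads 1 amplicon per gene, so transgene and native Il10 reads were not separated. In such bulk libraries more cells with a transcript and more transcript per cell cannot be told apart, here and below.

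Of 16 tested genes for metallothioneins and zinc handling, 2 rose and 0 fell, and their median log2 difference was 0.08. For this list and each one below, the shares over all genes tested were 5.10% for rises and 2.64% for falls. Mt1, which codes for a zinc-binding protein, was read at 2.05, 3.11 and 4.17 CPM with zinc and 0.786, 0 and 0.053 CPM without. It rose 11.1-fold (log2 3.38, SE 0.79, adjusted p = 0.00884), and stood at 0.172, 0.561 and 0.468 CPM in zinc-fed C57BL/6. Replicate 1 of the group without zinc held most of that group's reads, and Mt1 stayed called without it (adjusted p = 0.000474). No fold is given for that fit, since too few reads were left in the group. The call was lost without replicate 3 of the group without zinc (adjusted p = 0.0527) and in a fit of CD8 libraries alone. Mt3, another metallothionein, was at 4.1, 1.79 and 5.93 CPM with zinc and at 0.131, 0 and 0 CPM without (adjusted p = 6.3e-05). Slc30a1, the zinc exporter that metal induces in many cells, did not pass the test, at 0.683, 0.471 and 0.293 CPM against 0.459, 0.488 and 0.477.

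Among 19 tested genes of IL-10 and STAT3 signalling, 4 rose and 0 fell (median log2 0.3). Il10ra, the ligand-binding receptor chain, was read at 311, 224 and 320 CPM with zinc and 131, 127 and 79 without, a 2.54-fold rise (log2 1.34, SE 0.2, adjusted p = 0.000146). Il10rb, the shared chain, was at 337 to 373 CPM against 335 to 454 and was not called (adjusted p = 0.567). Stat3 rose from 339 ± 49.8 to 553 ± 109 CPM (SD, n = 3 each, edgeR adjusted p = 0.00332). Bcl3, an NF-kappaB regulator, stood at 137, 125 and 121 CPM against 37.2, 47.3 and 37.8 and rose 3.14-fold, and Sbno2, a co-regulator induced by IL-10 in macrophages, rose 1.84-fold. Socs3, a feedback inhibitor and STAT3 target, was at 2.64, 2.64 and 2.93 CPM against 0.459, 2.44 and 0.583 and was not called (adjusted p = 0.373). Its groups did not overlap, and its 2.36-fold difference was 5.25-fold without replicate 2 of the group without zinc. That fit did not call it either (adjusted p = 0.116).

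**Figure D1:**
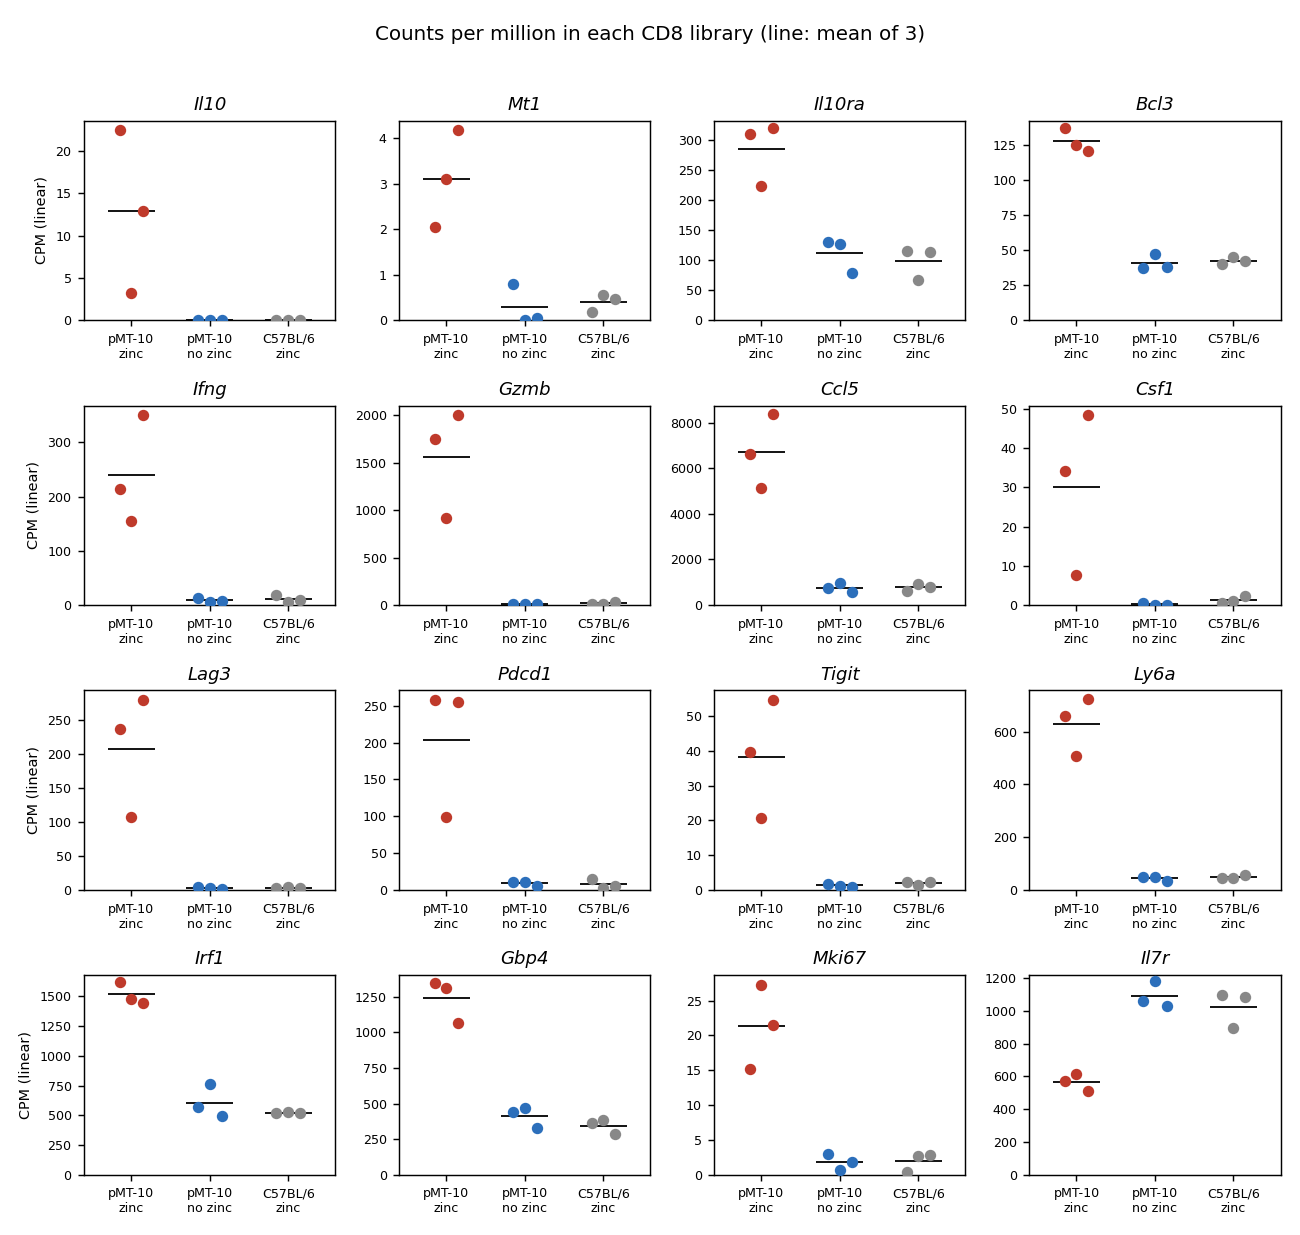
CPM on a linear axis for 16 genes in CD8 libraries of zinc-fed pMT-10 mice, pMT-10 mice without zinc and zinc-fed C57BL/6 mice. Each point is a library (replicates 1 to 3 from left to right) and each line the mean of 3. All 3 zinc-fed pMT-10 libraries lie above the others for 15 of the genes and below them for Il7r, while both control groups lie close together.

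Cytotoxic and type 1 effector genes came next in the order of signalling to output. Of 29 tested, 13 rose and 0 fell, with a median log2 difference of 0.99 against -0.005 over all genes. Ifng, on chromosome 10 (118441046 to 118445892), was read at 214, 155 and 351 CPM with zinc, at 13.6, 5.85 and 7.42 without, and at 18.8, 5.79 and 8.97 in C57BL/6. Every zinc-fed pMT-10 library thus stood far above the 6 controls (log2 4.73, SE 0.49, adjusted p = 1.47e-05).

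Granzyme B is a protease of killer cells, and its gene Gzmb (chromosome 14, 56258838 to 56262260) was read at 1752, 913 and 2004 CPM with zinc. Without zinc it was at 11.1, 12.9 and 9.06 CPM, and in C57BL/6 at 14, 9.72 and 34.7. Its groups lay far apart (log2 7.15, SE 0.57, adjusted p = 1.42e-06). Gzma rose from 1.97, 1.66 and 0.318 CPM to 44.9, 12.4 and 19.5, a 19.5-fold rise that was 12.1-fold without zinc-fed replicate 1. Gzmk, the gene of another granzyme, rose 19.8-fold, to 207, 101 and 296 CPM. Fasl, the death ligand that binds FAS on target cells, stood at 30, 8.75 and 38.6 CPM against 5.37, 3.81 and 1.54. Prf1, which codes for perforin, was at 116, 45.6 and 138 CPM against 58.5, 42.9 and 49.4, so that its groups overlapped (adjusted p = 0.0582), and Nkg7, a granule membrane protein gene, was at 1316, 1152 and 1313 CPM against 569, 745 and 575 (adjusted p = 0.066).

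The chemokine genes Ccl3, Ccl4 and Ccl5, whose products attract other leukocytes, all rose. Ccl5 went from 755, 982 and 560.0 CPM to 6605, 5124 and 8354 (8.74-fold, adjusted p = 0.000156). Ccl3 stood at 241, 135 and 310 CPM against 4.78, 7.51 and 1.91, or 48.2-fold, and Ccl4 rose 24.1-fold.

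The lineage factors of type 1 cells did not pass the test. Tbx21, which codes for T-bet, was read at 63.1, 70.8 and 64.8 CPM against 52.3, 37.6 and 40.5 (adjusted p = 0.0811), and Eomes, its relative in effector and memory CD8 cells, at 144, 117 and 202 against 86.9, 82.4 and 96.3 (adjusted p = 0.0639). For each, every zinc-fed library stood above every library without zinc. Il12rb1, a chain of the IL-12 receptor, rose 5.9-fold, and Id2, a regulator that promotes effector CD8 cells, rose from 42.3, 47.9 and 32.7 CPM to 148, 123 and 199.

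Cytokine and growth factor genes gave a mixed picture. Of 18 tested, 5 rose and 1 fell (median log2 0.25), and between 2 and 3 rose when any single CD8 library of pMT-10 was left out. Csf1, the gene of a macrophage growth factor, was read at 34.1, 7.62 and 48.5 CPM with zinc, at 0.459, 0 and 0 without and at 0.515, 0.935 and 2.34 in C57BL/6, a 197-fold rise (adjusted p = 3.18e-05). All Csf1 reads of the group without zinc were in its replicate 1, and without that library the group was at 0 reads and Csf1 stayed called (adjusted p = 0.000249). Tnfsf10, which codes for the death ligand TRAIL, rose 3.86-fold. Tnf did not pass the test (1.19, 1.32 and 1.02 CPM against 1.83, 0.585 and 1.22), and Csf2, which codes for the myeloid growth factor GM-CSF, had 0 reads in all 6 libraries. Ltb, the gene of lymphotoxin beta, fell from 931, 977 and 1056 CPM to 615, 548 and 579.

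Coinhibitory receptors had the highest share of members called of any functional list: 10 of 14 tested rose and 0 fell, with a median log2 difference of 2.37. Between 10 and 12 rose when any single CD8 library of pMT-10 was left out. Lag3, which codes for a receptor of MHC class II, was read at 237, 107 and 279 CPM with zinc and 3.67, 3.41 and 0.742 without (log2 6.38, SE 0.77, adjusted p = 0.000102). Pdcd1, the gene of PD-1, stood at 258, 98.3 and 255 CPM against 10.3, 10.6 and 5.3. For both genes replicate 2 was the lowest zinc-fed library, yet it lay above all libraries without zinc.

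Tigit, whose product binds CD155, rose from 1.83, 1.17 and 0.901 CPM to 39.8, 20.6 and 54.7, or 29.5-fold (adjusted p = 1.52e-07). Havcr2, which codes for TIM-3, was at 11.3, 1.51 and 16.2 CPM with zinc and had 3 reads in all without (adjusted p = 5.85e-05). Ctla4, the rival of CD28 for B7 ligands, rose 5.02-fold to 15.2, 6.31 and 11.1 CPM. Cd274, the gene of the PD-1 ligand PD-L1, stood at 105, 72.1 and 98 CPM against 26.9, 25.5 and 28.3, a 3.41-fold rise. Cd244, a receptor of the SLAM family, rose 23.8-fold, and Entpd1, the ectoenzyme CD39, rose 7.58-fold. The 4 members that were not called were Lair1, Cd200, Cd160 and Nt5e.

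Of 16 transcription factors tied to exhausted or effector T cells, 7 rose and 0 fell (median log2 0.45). Prdm1, which codes for BLIMP-1, stood at 49.7, 14.2 and 52.3 CPM with zinc and 0, 0.781 and 1.01 without. Its fold of 65 was 43.3 without replicate 1 of the group without zinc and 99.2 without replicate 3. Tox2 was at 27.3, 7.91 and 34.6 CPM with zinc and had 2 reads in all without, while its relative Tox rose 2.05-fold from 95.9, 95.3 and 115 CPM to 238, 148 and 244. Maf, a factor that drives Il10 in several T cell types, rose from 1.11, 1.46 and 1.96 CPM to 16, 10.1 and 22.6 (adjusted p = 5.01e-07). Bhlhe40 rose 11.4-fold and Irf4, a factor induced by T cell receptor signals, 3.17-fold. Nr4a1 and Nr4a3 were not called (log2 -0.08 and -0.14), whereas Nr4a2 was (log2 3.32, adjusted p = 0.0024).

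The interferon-gamma response list held 14 genes that rose and 0 that fell among 23 tested (median log2 1.1), and 13 or 14 rose without any single CD8 library of pMT-10. Irf1, the transcription factor with the activated site 90 bases before its start, was read at 1620.2, 1481 and 1447 CPM with zinc, 567, 763 and 491 without, and 517, 525 and 516 in C57BL/6. The zinc-fed pMT-10 libraries lay close together and above all 6 controls (log2 1.32, SE 0.14, adjusted p = 2.4e-06). Gbp4, a GTPase that acts against pathogens inside cells, stood at 1347, 1309 and 1063 CPM against 442, 469.8 and 330.4. Its relative Gbp2, in whose window no activated site was found, rose 2.86-fold.

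Among the genes with an activated site, Irf8, a factor best known in myeloid cells, rose most (log2 2.62, from 22.1, 18.8 and 10.5 CPM to 107, 77.5 and 130). The immunity-related GTPase genes Gm12250 and Igtp, whose sites stood 61 and 45 bases before the start, rose 4.16-fold and 3.61-fold. Psmb8, an immunoproteasome subunit gene with a site 97 bases before its start, was not called (log2 0.35). Gbp5 and Gbp7 rose by 1.43 and 1.10 on the log2 scale. The peptide transporter genes Tap1 and Tap2 rose by 0.61 and 0.47, while B2m (log2 0.12) did not pass the test.

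Of 26 tested genes of the type I interferon response, 3 rose and 1 fell, and the median log2 difference was 0.32. The risen became 1 to 3 when any single CD8 library of pMT-10 was left out, with 1 without zinc-fed replicate 3 and without replicate 2 or 3 of the group without zinc. Zbp1, a sensor of Z-form nucleic acids, rose 2.01-fold. Mx1, an antiviral GTPase gene, was at 17.4, 23.1 and 20.6 CPM against 13, 9.56 and 9.27 (adjusted p = 0.0214). Mx1, Trim30a and Slfn5 each lost their calls without some single library, Mx1 at an adjusted p of 0.0979 without replicate 3 of the group without zinc. The share of called members was not tested against that of the interferon-gamma list.

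**Figure D2:**
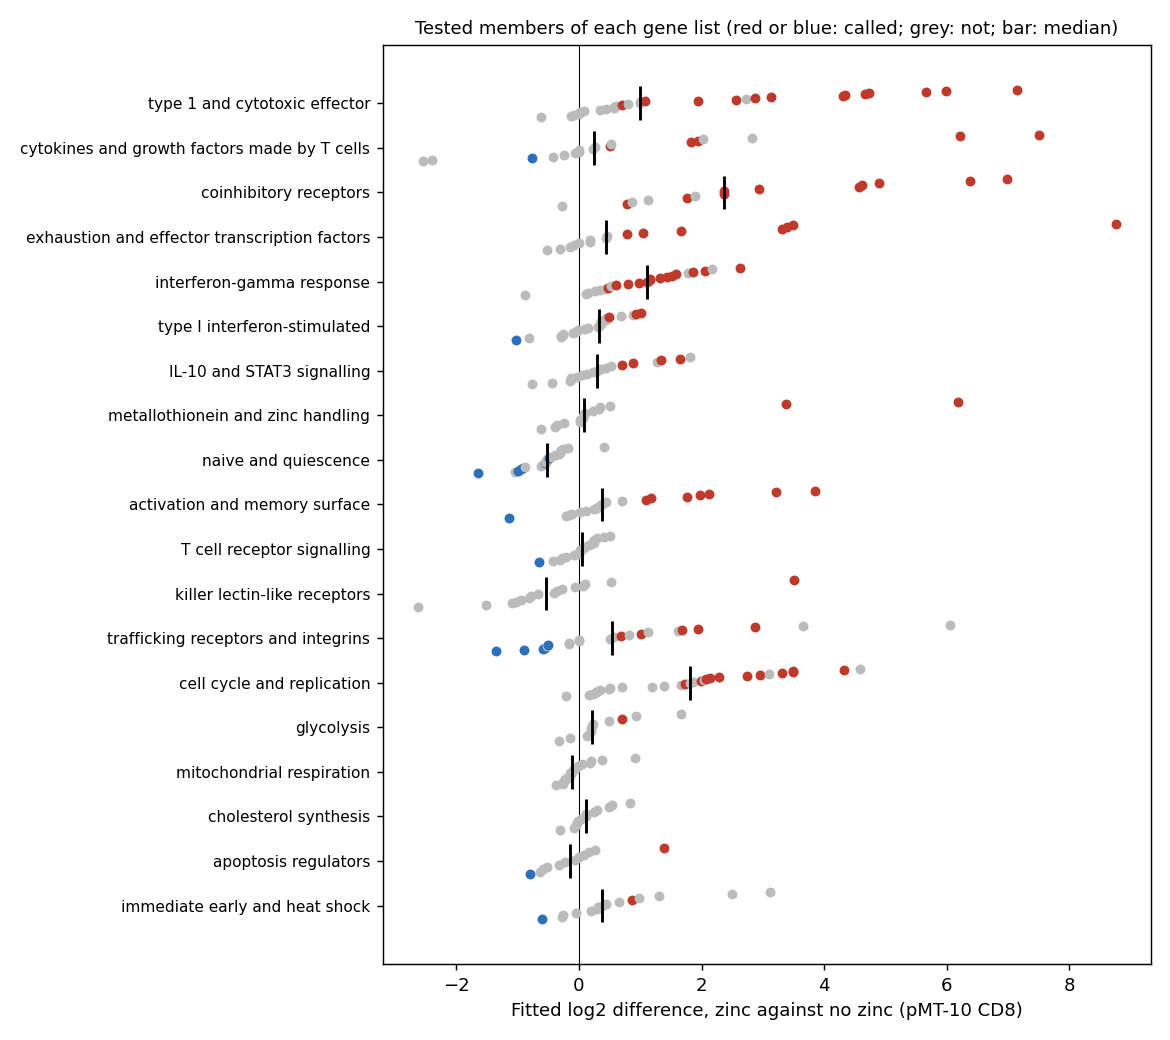
Fitted log2 difference with zinc for the tested members of 19 gene lists, each point a gene (red, called higher; blue, called lower; grey, not called), with a black bar at each list's median. The medians of coinhibitory receptors (2.37), the cell cycle (1.82) and the interferon-gamma response (1.1) lie farthest to the right, and those of killer lectin-like receptors (-0.54) and naive genes (-0.53) farthest to the left.

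Activation and memory surface genes were mixed, with 7 risen and 1 fallen of 20 tested (median log2 0.37). Ly6a, the gene of Sca-1, which interferons and activation induce, had the smallest adjusted p of the genes named here (1.59e-10). It was read at 657, 506 and 722 CPM with zinc, 48.2, 49.4 and 33.3 without, and 46.9, 43.6 and 58.2 in C57BL/6, so the lowest zinc-fed pMT-10 library stood far above all 6 controls. Cd38, an ectoenzyme of activated cells, rose 9.41-fold, and Slamf1 rose 2.26-fold. Itgae, the gene of the CD103 integrin chain, fell from 85.1, 124 and 128 CPM to 57.2, 51.5 and 44.7 (adjusted p = 0.000145). Cd44, a memory marker, was at 138, 120 and 180 CPM against 167, 112 and 125, with overlapping groups.

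Naive and quiescence genes had a median log2 difference of -0.53, with 0 risen and 6 fallen of 22 tested. The 6 became 2 to 5 when any single CD8 library of pMT-10 was left out, the smallest without zinc-fed replicate 1 or 2. Ccr9, a gut-homing chemokine receptor gene, fell from 78.1, 51.8 and 82.8 CPM to 29.9, 19.7 and 18.4 (log2 -1.65, SE 0.33, adjusted p = 0.0028) and stayed called without each library. Il7r, the gene of the IL-7 receptor chain, was at 569, 614 and 509.8 CPM with zinc and 1062, 1182 and 1027 without. Its groups did not overlap and it was called (adjusted p = 0.0221), but the adjusted p was 0.0536 to 0.0939 when any of the 6 libraries was left out. Lef1, a partner of TCF-1, fell 1.88-fold (adjusted p = 0.0116, and 0.0726 without replicate 3 of the group without zinc). Tcf7 and Ccr7, markers of naive and central memory cells, were not called. They stood at 1713 to 2320.0 and 968 to 1353 CPM with zinc, and at 2254 to 3129.7 and 1392 to 2065 without.

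T cell receptor signalling genes showed little change, with 0 risen and 1 fallen of 20 (median log2 0.05). The gene that fell was Cd247, the zeta chain, from 647, 553 and 826 CPM to 459, 342 and 494 (adjusted p = 0.0142), a call lost without zinc-fed replicate 2 (adjusted p = 0.0862) and without replicate 3 of the group without zinc (0.105). Of 16 killer lectin-like receptors 1 rose, a share near the 5.10% of all genes tested, and the list's median log2 difference was -0.54. The gene that rose was Klrb1f, from 2.56, 2.83 and 1.11 CPM to 14.3, 31.9 and 25.8. Trafficking receptors and integrins had 5 risen and 5 fallen of 22. These became 3 to 6 risen and 3 to 4 fallen when any single CD8 library of pMT-10 was left out, with 3 risen in each case but that without zinc-fed replicate 2 (6), and 4 fallen without zinc-fed replicate 1 or replicate 2 of the group without zinc. Cxcr4, which holds cells in the marrow by binding CXCL12, fell 2.55-fold, from 259, 299 and 213 CPM to 107, 111 and 84.4 (adjusted p = 9.22e-05). Itgal, the LFA-1 integrin chain, rose from 559, 392 and 539 CPM without zinc to 957, 655 and 1405 with it, and Ccr2 rose 3.88-fold (6.14-fold without replicate 1 of the group without zinc).

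Cell cycle and replication genes rose in 11 of 29 tested members and fell in 0, with a median log2 difference of 1.82, and 9 or 10 rose without any single CD8 library of pMT-10. Mki67, the gene of the proliferation antigen Ki-67, was read at 15.2, 27.3 and 21.4 CPM with zinc and 3.01, 0.683 and 1.8 without (11.6-fold, adjusted p = 2.14e-05). Top2a, a topoisomerase gene of dividing cells, stood at 28.4, 47.2 and 42.5 CPM against 3.34, 4.2 and 4.29. Rrm2, a subunit of ribonucleotide reductase, was highest in zinc-fed replicate 2 (40.6 CPM against 10.4 and 17.3 in the others), and its fold of 4.88 was 2.98 without that library. The replication helicase genes Mcm2, Mcm3, Mcm5, Mcm6 and Mcm7 did not pass the test (log2 0.17 to 0.49).

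The 3 zinc-fed libraries ranked differently for these lists. Replicate 2 was the lowest in 12 of the 13 cytotoxic genes that rose, 9 of 10 coinhibitory receptors, all 7 transcription factors and 12 of 14 interferon-gamma response genes. In the cell cycle list it was the highest in 8 of the 11 genes that rose, and replicate 1 the lowest in 10. Il10 was also lowest in replicate 2. Replicate 2 was the lowest, too, in 6 of 7 activation and memory surface genes and 4 of 5 trafficking genes that rose, and in 2 of 5 cytokine genes. Among IL-10 and STAT3 signalling genes that rose it was the lowest in 2 of 4, and among those for metallothioneins and zinc handling in 1 of 2. The ranking over all 577 genes that rose was not computed, so whether it is particular to these lists was not tested. With 3 libraries no correlation was computed.

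Metabolic lists moved little (of all genes tested, 5.10% rose and 2.64% fell). Glycolysis had 1 gene risen of 12 (Pfkp, a phosphofructokinase gene, from 144, 156 and 139 CPM to 217, 248 and 249), and mitochondrial respiration and cholesterol synthesis had 0 called of 19 and 0 of 13 by edgeR. Of 12 apoptosis regulators 1 rose and 1 fell. The one that fell was Bcl2l1, which codes for the survival protein BCL-XL (log2 -0.80, adjusted p = 0.0323), and its call was lost without any of 5 single libraries. Of 15 immediate early and heat shock genes Jun rose, to 223, 439 and 332 CPM from 195, 179.6 and 169.8, and Dusp2, a phosphatase gene, fell. The Jun call was lost without zinc-fed replicate 2 (adjusted p = 0.103), and that of Dusp2 without replicate 3 of the group without zinc (0.0712).

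**Figure D3:**
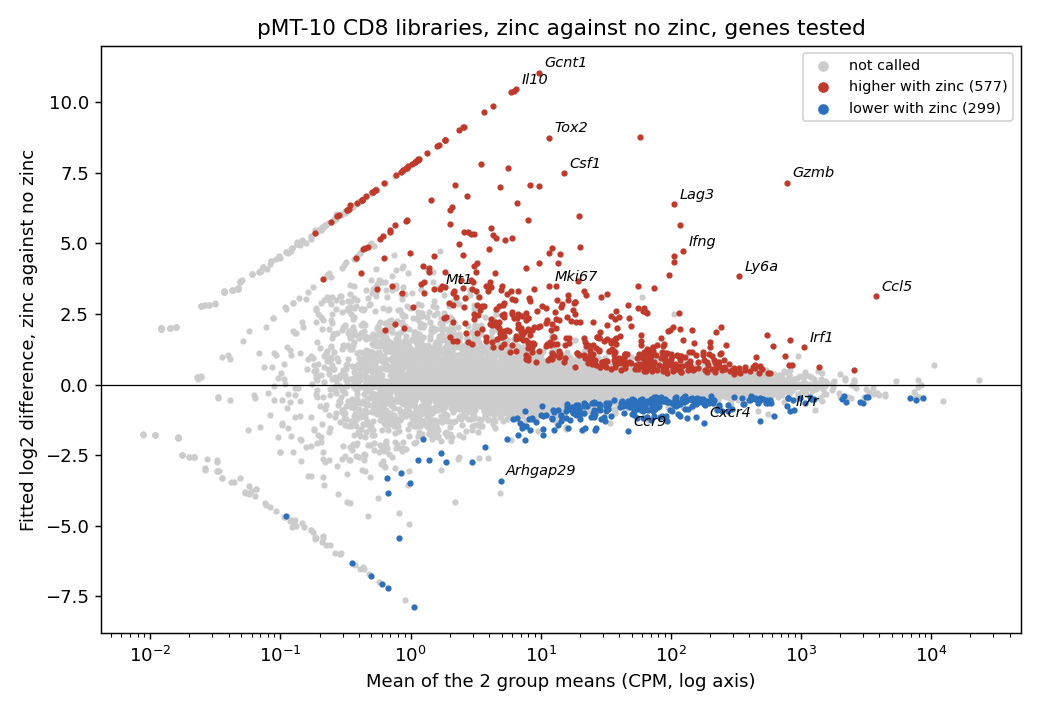
Fitted log2 difference with zinc in pMT-10 CD8 cells (vertical axis) against the mean of both group means in CPM (log axis) for each gene tested, with 577 genes higher (red), 299 lower (blue) and the rest not called (grey). Large positive differences reach genes at over 100 CPM (Gzmb, Lag3, Ifng, Ly6a, Ccl5), while the most negative called value at that level is that of Cxcr4 (-1.35).

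Outside the lists, the largest rises included several genes with 0 reads in all libraries without zinc. Gcnt1, a glycosyltransferase gene that shapes selectin ligands on effector T cells, was read at 19.8, 3.95 and 34.1 CPM, at least 304-fold higher (181-fold without replicate 3). Adgrg1, an adhesion receptor gene (GPR56) of cytotoxic lymphocytes, was at 19.2, 4.24 and 13.8 CPM, at least 189-fold higher. Ttc16 stood at 14, 6.31 and 15.4 CPM (at least 181-fold) and Plekhf1 at 2.99, 4.42 and 7.98 (at least 78.5-fold). Replicate 2 was the lowest zinc-fed library for Gcnt1, Adgrg1 and Ttc16, and replicate 1 for Plekhf1.

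In other genes at 0 without zinc, 1 zinc-fed library also carried much of the bound. Nefl, a neurofilament gene, was at 18.6, 1.13 and 2.27 CPM, and its bound of 107-fold was 26.2-fold without replicate 1. LOC328066 was at 16.5, 4.71 and 4.46 CPM (at least 125-fold, 67.6-fold without replicate 1), and Rasgrf1, a RAS exchange factor gene, at 0.768, 2.92 and 11.5 CPM (at least 80.9-fold, 26.5-fold without replicate 3). Itgad, an integrin chain gene, was at 5.38, 3.95 and 11.5 CPM with 1 read in all without zinc, and Ociad2 at 9.21, 10.3 and 14.1 CPM with 2 reads.

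The largest falls outside the lists were smaller and at lower levels. Arhgap29, the gene of a GTPase-activating protein, stood at 0.597, 0 and 1.83 CPM against 8.98, 10.1 and 8, an 11.2-fold fall. Its ratio of zinc to no zinc, 0.0895, was 0.033 without zinc-fed replicate 3, and that of Fgd6 went from 0.25 to 0.132. Fgd6 fell 4.01-fold, Itga5, the fibronectin receptor chain, 3.74-fold, and Basp1 3.46-fold. Prss12 fell from 35.8, 34.3 and 46.9 CPM to 12.5, 13.8 and 12.4, Art4 from 31.3, 31.3 and 31 to 11.1, 13.5 and 6.29, and Cnga1 from 19.4, 18.7 and 19 to 5.12, 8.09 and 5.34. Of these 7 genes, all but Basp1 and Itga5 lost their calls without zinc-fed replicate 1, and those 2 did without replicate 3 of the group without zinc.

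Tmem154, a transmembrane protein gene, fell 3.02-fold, from 10.2, 11.3 and 16 CPM to 3.41, 4.33 and 4.68, and stayed called without each of the 6 libraries (adjusted p = 0.00169 to 0.0113). Pcsk1, which codes for a prohormone convertase, stood at 0.768, 0 and 1.46 CPM against 5.64, 6.15 and 3.76 and also stayed called, while its ratio of zinc to no zinc, 0.144, was 0.0741 without zinc-fed replicate 3. Akap12, a scaffold protein gene, stood at 0, 1.22 and 2.71 CPM against 4.85, 8 and 5.67 (ratio 0.212, adjusted p = 0.0435). Its ratio was 0.319 without zinc-fed replicate 1 and 0.0991 without replicate 3, and its call was lost without any library but the latter.

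Markers of other cells that a marrow sort could hold were summed in each of the 6 libraries. Summed over 12 neutrophil markers, levels were 0.341 to 15 CPM with zinc and 0.195 to 1.7 without. The high value came from zinc-fed replicate 3, where Prtn3 and Elane, protease genes of neutrophil precursors, stood at 9.51 and 2.49 CPM, and 0 of 2 tested members were called. Markers of monocytes and macrophages summed to 2.39 to 9.66 CPM against 2.75 to 4.78, with 0 of 3 called and Fcgr1, Adgre1, Mrc1 and C1qa at 0 reads. Erythroid markers, of which 6 of 12 were on the panel, summed to 6.97 to 14.8 CPM against 4.98 to 10.1 (0 of 3 called). Those of stem, mast and platelet cells summed to 3.95 to 4.86 against 1.95 to 3.47 (0 of 3).

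B cell and plasma cell markers summed to 137 to 163 CPM against 97.3 to 143. Ms4a1, Pax5 and Ebf1 were at 0, and 1 of 4 rose, Cd74, the MHC class II chaperone gene that interferon gamma also induces, from 5.18, 4.68 and 7.74 CPM to 23.8, 36.3 and 25.3. NK cell markers summed to 362 to 474 CPM against 373 to 440 (0 of 6 called), with Ncr1 at 0 reads with zinc. That sum includes Eomes (log2 0.80), which effector and memory CD8 cells also express, while the list's median log2 difference was -0.69. It is therefore not a measure of NK cells alone. Dendritic cell markers, at 179 to 249 against 210 to 237 CPM, had 1 of 5 lower (Ccr9) with Siglech, Xcr1 and Clec9a at 0. Markers of CD4 and regulatory T cells summed to 145 to 195 CPM against 122 to 157, and 1 of 9 rose (Capg, from 7.67, 8.49 and 6.73 CPM to 21.3, 29.6 and 19.9). Of 10 gamma-delta and innate-like markers only 5 were on the panel, so their sum covers part of the list. It stayed under 1 CPM, with 1 of 2 tested members called, a call lost in all but 1 of the fits without a library. The part of such cells in the results was not tested.

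The difference with zinc was then set against that in CD4 cells of the same 2 kinds of mice. The difference between the cell types was called for 428 of 11316 genes (3.78%), 276 with a more positive difference in CD8 cells and 152 with a more negative one. Scaling by library size alone gave 613 calls split 537 to 76 and moved the median from 0.047 to 0.223 on the log2 scale. The count also rested on the CD4 libraries, at 133 without zinc-fed CD4 replicate 1 and 693 without replicate 2 of that group. Values named below kept their calls in each of the 12 fits that left out 1 library, except where stated.

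Ctla4 went opposite ways in the cell types. In CD4 cells it fell from 229 ± 11 to 90.3 ± 10.3 CPM (SD, n = 3 each), whereas in CD8 cells it rose (difference 3.71 on the log2 scale, SE 0.43, edgeR adjusted p = 6.16e-05). Itgae showed the reverse pattern, since it fell in CD8 cells and rose from 59.2 ± 3.34 to 97.2 ± 18.8 CPM in CD4 cells (difference -1.85, edgeR adjusted p = 0.000125). Maf rose in CD8 cells from a low level, while in CD4 cells it stood at 225 ± 22.5 CPM without and 317 ± 13.3 with zinc, which was not called (difference 2.90).

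Csf1 had a larger difference in CD8 cells by 6.68 (SE 1.03, adjusted p = 0.00223), a value that was 10.87 without CD8 replicate 1 of the group without zinc, where it depends on a prior count, with levels in CD4 cells of 103, 106 and 106 CPM without and 176, 127 and 251 with zinc. Map6, which codes for a microtubule-stabilising protein, was at 4.69, 2.26 and 4.17 CPM in zinc-fed CD8 cells and had 0 reads without zinc, and was at 48.3 ± 10.1 and 54 ± 5.51 CPM in CD4 cells (SD, n = 3 each). Il10 stood in CD4 cells at 3.1, 3.63 and 1.4 CPM without zinc and 26, 16.6 and 20.9 with it. The difference between cell types in Il10 was called (adjusted p = 0.0125 by edgeR), but not by limma voom, and the same held for Csf1.

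Cytotoxic genes with the smaller difference in CD8 cells included Eomes, Prf1, Cst7 and Crtam. Eomes rose in CD4 cells from 16.7, 12.6 and 7.57 CPM to 368, 281 and 355, above the 144, 117 and 202 of zinc-fed CD8 cells, and its difference between cell types was -3.97 (SE 0.38, adjusted p = 1.93e-05). Prf1 rose there from 8.27, 10.2 and 8.91 CPM to 117, 69.5 and 99.7 (difference -2.40, adjusted p = 0.00538). Crtam, a surface receptor gene of cytotoxic T cells, stood at 61.6, 75.9 and 85.4 CPM in zinc-fed CD8 cells against 75.1, 69 and 76.3, and rose in CD4 cells to 28.3, 38.6 and 31.5 from 7.82, 5.76 and 5.41. Gzma was the opposite case, not called in CD4 cells (1.89 ± 1.67 against 2.53 ± 1.5 CPM), and its difference of 4.70 lost its call without zinc-fed replicate 1 of either cell type or without CD4 replicate 1 of the group without zinc.

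**Figure D4:**
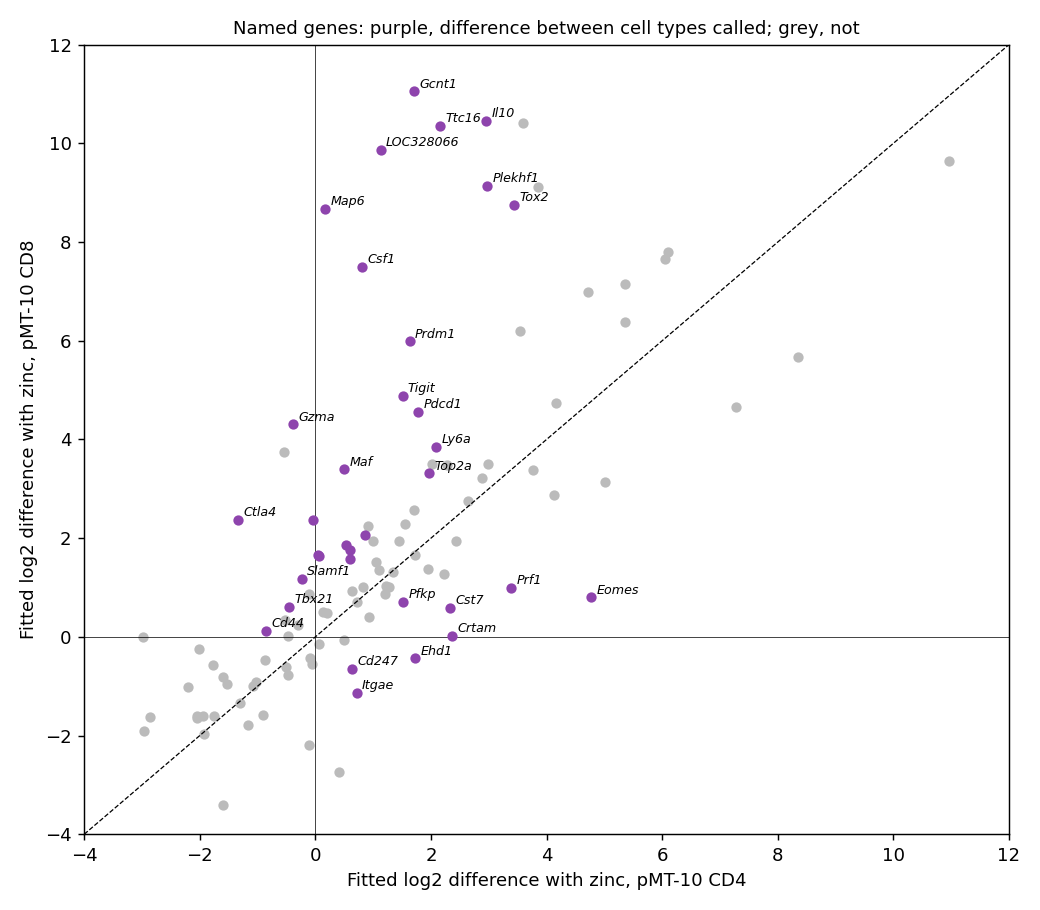
Fitted log2 difference with zinc in CD8 cells (vertical axis) against that in CD4 cells (horizontal axis) of pMT-10 mice for the genes named here, with a dashed line where both are equal. Purple genes, such as Eomes (0.80 and 4.77) and Ctla4 (2.37 and -1.35), had a called difference between the cell types, and grey genes did not. Vertical values over 8 belong to genes at or near 0 reads in CD8 cells without zinc and depend on a prior count.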

How the data were processed

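RNA of sorted marrow T cells was sequenced with an Ion AmpliSeq mouse transcriptome panel, which has 1 amplicon for each of 23930 genes. The authors deposited raw read counts per amplicon, and the values were whole numbers. The genome build is mm10, per the submitters' processing notes, and for the aligner, the counter, the use of strand and the amplicons' positions the entry is not given in the sources used here. Molecular identifiers are not mentioned, so limits at 0 counts cover counting error only. Reads of an antisense or near-identical gene may share a count.

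Columns were matched to samples by barcode and chip. Replicate numbers follow the order of the records. The labels do not say which mouse or mice each library came from. The p-values rest on the spread between libraries within groups, estimated over all 18 libraries and not only the 6 compared. Genes passing filterByExpr (11316) were scaled by TMM and fitted in edgeR 4.0.16 (R 4.3.3) by robust quasi-likelihood with a mean for each of 6 groups and all 18 libraries in the fit. Calls are genes whose p, adjusted across the 11316 genes, was under 0.05, and p values are edgeR's unless another tool is named. CPM use TMM-scaled library sizes, and folds are ratios of mean CPM. "At least" sets pooled counts against 3 counts over the group at 0, and no fold is given against 1 to 3 counts. The SE is that implied by the test. The difference between cell types is an interaction contrast in the same fit. Permutation tests used log2(CPM + 1).

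The 29 gene lists (507 genes, 459 of them on the panel), the comparisons and the genes named were chosen with earlier results of these data known, so lists are described by counts and medians without a test. Genes named were a fixed set of marker genes, up to 4 called members of smallest adjusted p per list, the 12 largest called rises and falls without overlap at a mean of at least 5 CPM, and the 6 genes of smallest adjusted p in the interaction, which made 108. Gene models without a proper symbol were left out of the last 2 groups. Other list members named in the text were picked after their values were seen. Mt2 and Isg15 were not among the panel's symbols and were not analysed here. Some genes are not reported here. Gene coordinates are from GENCODE M21 and promoter sequences from RefSeq, both GRCm38, and 302 of 395 tested list genes had a promoter. Alternatives were other scalings, filters, tools (DESeq2 1.42.0, limma 3.58.1 voom), sets of libraries and leaving out each library.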

Additional observations from a re-analysis of the deposited data

Results flagged for a closer look

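Of the 108 genes that the naming rule chose, 34 were called in the interaction contrast (edgeR, adjusted p under 0.05). Their difference with zinc was thus not the same in CD8 and CD4 cells. Over all genes tested, 428 of 11316 were called in this contrast (3.78%). The naming rule took some genes for a small adjusted p in this contrast and others for their calls in CD8 cells. The count of 34 therefore cannot be set against that share. Values are the log2 difference with zinc in CD8 cells minus that in CD4 cells.

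More positive differences in CD8 cells than in CD4 cells were found for the inhibitory receptors and ligand Ctla4 (3.71), Cd200r1 (2.42), Tigit (3.38), Pdcd1 (2.79) and Cd274 (1.17). The transcription factors among them were Maf (2.90), Irf4 (1.61), Prdm1 (4.36), Tox2 (5.32) and Tbx21 (1.06). Interferon-induced GTPase genes were Igtp (1.33), Gbp4 (0.98) and Gm12250 (1.2). Surface and secreted products were Ly6a (1.76), Slamf1 (1.42), Cd44 (0.97), Csf1 (6.68), Gzma (4.70) and Il10 (7.5), and Top2a, of the cell cycle, stood at 1.36. The rest were Map6 (8.52), Ttc16 (8.20), Gcnt1 (9.35), LOC328066 (8.74), Plekhf1 (6.17) and Capg (1.57). Il10, Map6, Ttc16, Gcnt1, LOC328066 and Plekhf1 had 0 reads in CD8 cells without zinc, so their values depend on a prior count. That of Csf1 was 10.87 without replicate 1 of those libraries, which held all its reads. Cd44 and Tbx21 were not called in CD8 cells (0.12 and 0.61), and their CD4 differences were negative (-0.85 and -0.45).

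Smaller or more negative differences in CD8 cells were found for Eomes (-3.97), Prf1 (-2.40), Cst7 (-1.75), Crtam (-2.36), Ehd1 (-2.17), Itgae (-1.85), Cd247 (-1.28) and Pfkp (-0.82). For Cd247 and Itgae the CD8 difference was negative (-0.65 and -1.14) and the CD4 difference positive (0.64 and 0.71).

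Of the 34 genes, 23 stayed called without each single library and 25 under each other setting, and 0 changed sign. Top2a kept its call in 1 of the 12 fits without a library, Tbx21 in 2, Cd44 and Plekhf1 in 3 and Tox2 in 4. Whether a CD4 and a CD8 library came from the same mouse is not given in the labels.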

How the results depend on the processing

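Directions of the 90 named genes that were called did not change under any setting tried. Of these genes, 66 stayed called without each single pMT-10 CD8 library. Apart from a minimum fold, 78 stayed called under each other setting in which they had a value. Only 88 of the 90 had a value with CD8 libraries only, and 88 with only the groups compared.

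The 876 calls with zinc became 559 with CD8 libraries only, 493 with a fold of at least 2, and 565 to 755 without 1 library (lowest without replicate 3 of the group without zinc). The 592 calls with only the groups compared and the 1196 of DESeq2 lay within 1.5 times. The 428 calls of the difference between cell types became 847 with no filter on low counts, 799 with DESeq2 and 133 to 693 without 1 library. They were 197 without zinc-fed CD4 replicate 3, and 249, 201 and 211 without CD4 replicates 1, 2 and 3 of the group without zinc. The 11 calls between zinc-fed C57BL/6 and pMT-10 without zinc became 107 with no filter and 42 with DESeq2, and 8 to 13 without 1 library. The cause was not tested.

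Changes of sign were found for 5 genes that were not called. With limma voom the log2 values were -0.049 for Slc30a1, -0.37 for Cd4 and 0.0027 for Tnf. Without 1 library the values ran from -0.32 to 0.28 for Slc30a1, -1.96 to 1.05 for Cd4, -0.37 to 0.35 for Tnf, -0.065 to 0.30 for Cd44 and -0.10 to 0.14 for Crtam.

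No paired analysis was possible because replicate numbers follow the order of the records and the labels give no mouse, litter or day shared between groups. At the lowest depth 1 CPM was 10.5 reads, so genes under 1 CPM rest on few reads.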

Other observations

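The gene model 2900026A02Rik was left out of the genes named above for want of a proper symbol, and was picked here after its values were seen. In pMT-10 CD8 cells it stood at 115 ± 54 CPM with zinc and 0.313 ± 0.412 CPM without (SD, n = 3 each), a 367-fold difference (log2 8.78, SE 0.70, edgeR adjusted p = 6.9e-07). In zinc-fed C57BL/6 CD8 cells it was at 0.517 CPM on average.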
